A study of Rattus norvegicus with 4 samples.

Results

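The genes examined here encode the Fc receptors and ITAM adaptors of macrophages: the immunoglobulin G receptors Fcgr1a, Fcgr2a, Fcgr2b and Fcgr3a, the receptor Trem2, the adaptors Fcer1g and Tyrobp, and the kinase Syk. They were taken by symbol, as every array probe whose transcript accession belongs to one of these 8 genes in RefSeq, out of 16581 measured genes in all. Messenger RNA was measured on 4 one-colour arrays from NR8383 cells, a macrophage line established by lavage of a normal rat lung and used here after 20 passages. Carbon nanotubes functionalized with COOH groups (NRCWE042) had been on all 4 cultures for 4 h, at 6.8 cm2 of nanotube surface per cm2 of culture, and the labels name them as biological replicates 1 to 4. The design also holds unexposed cultures, which were not analysed here, so the values describe exposed cells and none is an effect of the nanotubes. NR8383 is 1 line grown in culture, and the labels do not state whether immunoglobulin or immune complexes were added.

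Fc gamma receptors bind the constant part of immunoglobulin G and let a macrophage take up antibody-coated particles. The activating ones signal through an ITAM, a cytoplasmic motif with a pair of tyrosines, which Src family kinases phosphorylate and on which Syk then docks. Most receptors of this kind carry no such motif of their own and borrow it from a small adaptor, either the Fc receptor gamma chain (Fcer1g) or DAP12 (Tyrobp), whereas Fcgr2b carries an inhibitory motif that recruits phosphatases. Trem2 binds lipids and lipoproteins and signals through Tyrobp. Carbon nanotubes carry no Fc part, and nothing measured here shows whether these receptors took part in their uptake.

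All 8 genes were detected on all 4 arrays, whereas 44.4% of all measured genes were (7363 of 16581). A gene counted as detected when the scanner software marked at least 1 of its probes well above background on every array. The level of a gene is the log2 of its processed signal minus the 75th percentile over the sample probes of the same array, so a level of 0 is the 75th percentile. A gene took its brightest probe. Probes differ in how well they bind, so levels are not set against each other between genes. The array signal was uneven: the 75th percentile of the processed signal was 128, 131, 98.5 and 49.0 on replicates 1 to 4, and 38.8%, 36.8%, 35.2% and 31.1% of sample probes were well above background. All arrays lay on 1 slide, and replicate 3 had a dim patch, in which 1 of the 46 spots of these genes lies. The cells carried the macrophage markers Cd68, Csf1r, Spi1, Itgam, Mrc1, Lyz2, Cd14, Pparg and Siglec1, and lacked signal well above background for Adgre1, Cd163 and Marco.

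**Figure D1:**
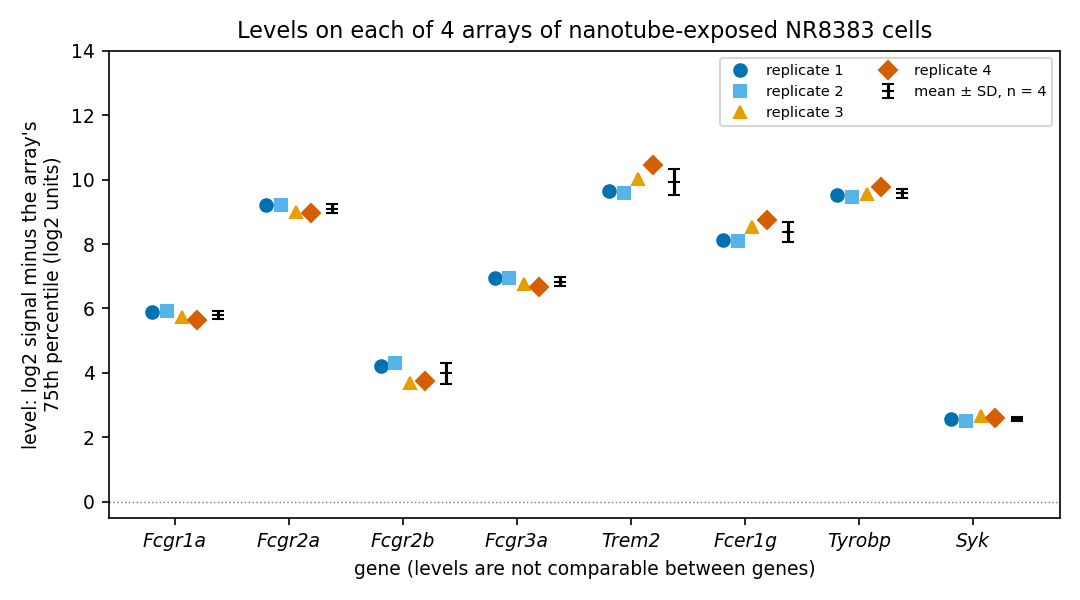
Levels of the 8 genes (log2 units over the 75th percentile of the array) on the 4 arrays, with the mean and SD beside them (n = 4). The 4 values of Syk lie within 0.15 of each other and those of Trem2 spread over 0.87, and every value is above 0.

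Among the activating receptors, Fcgr1a, the high-affinity receptor for immunoglobulin G, read 5.88, 5.92, 5.72 and 5.66 on replicates 1 to 4 (5.79 ± 0.13, SD, n = 4). Fcgr3a, which older annotation calls Fcgr4 or CD16-2, read 6.95, 6.94, 6.74 and 6.68 (6.83 ± 0.14). Both were slightly higher on replicates 1 and 2 than on replicates 3 and 4, and the highest array exceeded the lowest 1.20-fold for Fcgr1a and 1.21-fold for Fcgr3a. Fcgr2a, whose RefSeq entry carries the older names Fcgr3 and fcRIII, read 9.21, 9.22, 8.98 and 8.97 (9.10 ± 0.14). Its 10 spots on each array had an SD of 0.03 to 0.10, and spots of different arrays overlapped, with replicate 1 spots down to 9.02 and replicate 3 spots up to 9.11. Spots of 1 array share their labelled RNA and are technical repeats, so they say nothing of the spread between cultures.

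Fcgr2b, the inhibitory receptor known as CD32, had the widest spread of the 4 Fc gamma receptors. It read 4.20, 4.32, 3.67 and 3.75 (3.99 ± 0.32, SD, n = 4), with replicates 1 and 2 again above replicates 3 and 4 and a ratio of 1.57 between the highest and lowest array. Over all its 10 spots, outlier-marked ones included, the SD on replicate 3 was 1.04 and the lowest spot read 0.39. The level leaves such marked spots out, and 2 Fcgr2b spots over the 4 arrays were marked. On the other arrays the spot SD was 0.10, 0.09 and 0.25 on replicates 1, 2 and 4. One of its spots lies in the dim patch of replicate 3. The deviation of Fcgr2b from its own mean on replicate 3 was -0.31, and it was -0.54 with outlier-marked spots kept. It was -0.35 with all spots of that patch left out, those of other genes included. Under that setting Fcgr2a, which has no spot in the patch, moved as well, from -0.12 to -0.16. The change is thus not particular to the Fcgr2b spot.

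In the RefSeq table, Fcgr2b, Fcgr3a and Fcgr2a are neighbours on 1 chromosome with 0 protein-coding genes between them, and 9 such genes separate Fcgr2a from Fcer1g. Low-affinity Fc receptor genes resemble each other in sequence. Whether the probe of one also binds transcripts of another was not tested, because probe sequences were not used here. The difference between Fcgr2a and Fcgr2b on the same array, in which the scale of the array cancels, was 5.01, 4.90, 5.31 and 5.22 log2 units. It is read only for its change between arrays, which had a range of 0.40.

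Trem2 read 9.64, 9.58, 10.01 and 10.44 on replicates 1 to 4 (9.92 ± 0.40, SD, n = 4), so on this scale it was lowest on replicates 1 and 2 and highest on replicate 4, by 1.82-fold over the lowest array, whereas with the arrays scaled by their added spike-in control RNAs (spike-in scaling) replicate 4 was its lowest array and under normexp, a model-based background correction, replicate 3 its highest. The SD of its 10 spots within an array was 0.04 to 0.06, against 0.40 between arrays. Its processed signal itself was 101944, 100034, 101821 and 68283, with 0 saturated spots, while that of Fcgr2a was 75849, 78268, 49692 and 24635. The Trem2 signal thus dropped less on replicates 3 and 4 than the 75th percentile of those arrays did, and the Fcgr2a signal dropped more.

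The adaptor Fcer1g, which serves Fcgr1a and other activating receptors, read 8.13, 8.10, 8.52 and 8.75 (8.38 ± 0.31, SD, n = 4), with the arrays in the same order as for Trem2 on this scale, replicate 4 lowest with spike-in scaling and replicate 3 highest under normexp. It had an SD between its 2 spots of 0.04 to 0.11. Tyrobp, the adaptor of Trem2 and of many lectin and immunoglobulin-like receptors, was steadier on this scale at 9.51, 9.47, 9.55 and 9.77 (9.57 ± 0.13). Replicates 1 to 3 of Tyrobp lay close together and replicate 4 lay above them on this scale, but below its own mean with spike-in scaling, quantile normalization and normexp. Within an array, Trem2 minus Tyrobp was 0.13, 0.11, 0.47 and 0.67 log2 units, so the gap was widest on replicate 4.

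Syk, the kinase that docks on phosphorylated ITAMs, was the steadiest of the 8 genes on its brighter probe. That probe read 2.57, 2.50, 2.65 and 2.60 (2.58 ± 0.06, SD, n = 4), and 4.75% of all detected genes had a smaller SD. Under normexp its SD was 0.23, against 0.13 for Fcer1g, 0.13 for Tyrobp and 0.17 for Trem2. With spike-in scaling it deviated by 0.47, 0.52, -0.15 and -0.84, further from its mean on each array than Trem2 did. A second probe for the same transcript read -0.49, -0.66, -0.41 and -0.02 (-0.40 ± 0.27). The probes thus differed in level, and the gap between them was smallest on replicate 4. Both were well above background on all 4 arrays, but the dimmer one had a spot median of only 3.93, 3.19, 2.81 and 2.41 times its local background, against 18.7, 17.5, 15.6 and 7.89 for the brighter one. The processed signal of the dimmer probe was 90.9, 82.8, 74.0 and 48.5.

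**Figure D2:**
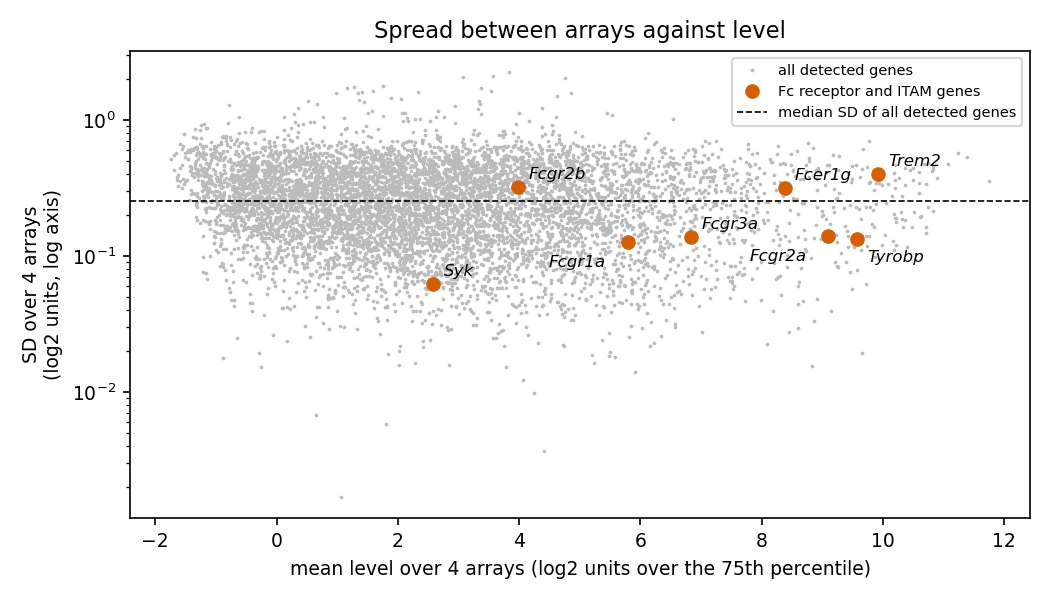
SD over the 4 arrays (log axis) against mean level for the 8 genes (orange) and all 7363 detected genes (grey), with the median SD of all detected genes as a dashed line at 0.25. Fcgr2b, Fcer1g and Trem2 lie above the line, and the other 5 genes lie below it.

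Across the 8 genes, the median SD between arrays was 0.14, against 0.25 over all detected genes (quartiles 0.15 and 0.39). The SD ranged from 0.06 for Syk to 0.40 for Trem2, and 3 of the 8 genes exceeded the median of all detected genes. Under normexp this order changed, with 0.17 for Trem2 and 0.23 for Syk. The 0.14 depended on the scaling of the arrays. It was 0.72 with spike-in scaling, 0.30 with normexp and 0.21 with quantile normalization, beside 0.61, 0.23 and 0.24 over all detected genes, so the position of these genes below the general median did not hold under the first and the second of these settings.

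Set against their own means, the 4 Fc gamma receptors and the pair of Trem2 and Fcer1g lay on opposite sides on every array of the 75th percentile scale, but on the same side with spike-in scaling, where all 8 genes were higher on replicates 1 and 2 and lower on replicates 3 and 4. On the 75th percentile scale the Fc gamma receptors deviated by 0.09 to 0.21 on replicate 1 and 0.11 to 0.33 on replicate 2, then by -0.31 to -0.08 on replicate 3 and -0.24 to -0.12 on replicate 4. Under normexp, Fcgr1a and Fcgr3a deviated by 0.03 and 0.01 on replicate 3, so their direction there was not kept. Trem2 deviated by -0.28, -0.34, 0.10 and 0.53, and Fcer1g by -0.25, -0.27, 0.15 and 0.37. With spike-in scaling Trem2 deviated by 0.20, 0.26, -0.12 and -0.33 and Fcer1g by 0.23, 0.32, -0.07 and -0.49, and under normexp Fcer1g was at -0.03 on replicate 4. The all-gene median itself stood at -0.16 and -0.76 on replicates 3 and 4 with spike-in scaling, and relative to it Trem2 lay at 0.04 and 0.43, Fcer1g at 0.09 and 0.27, and Fcgr2a at -0.18 and -0.22. On replicates 1 to 4, 38.7%, 41.9%, 61.9% and 59.6% of all detected genes were above their own mean on the 75th percentile scale. Sample signal was lowest on replicates 3 and 4, where the 75th percentile relative to the spike-in signal was -0.69 and -1.34 log2 units from that of replicate 1, and its part in these patterns was not tested.

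**Figure D3:**
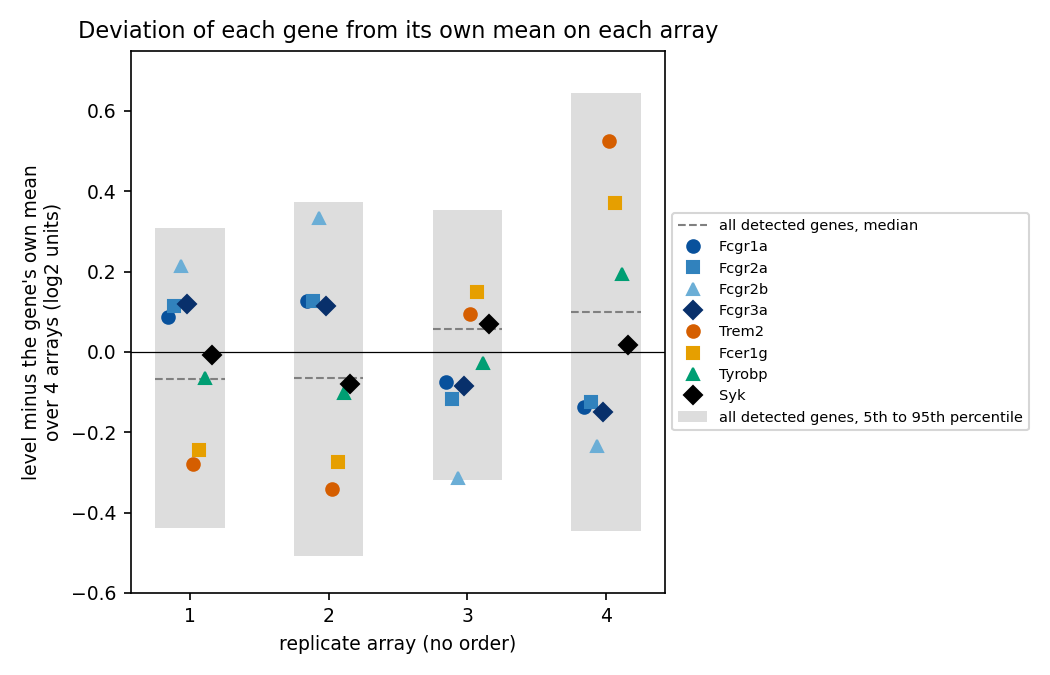
Level of each of the 8 genes minus its own mean (log2 units) on each array, with the 5th to 95th percentile (grey bars) and median (dashed) of all detected genes. The blue Fc gamma receptors are above 0 on replicates 1 and 2 and below 0 on replicates 3 and 4, the reverse of Trem2 and Fcer1g; under normexp Fcgr1a and Fcgr3a pass 0 on replicate 3, and with spike-in scaling Trem2 and Fcer1g lie above 0 on replicates 1 and 2 and below 0 on replicates 3 and 4.

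Differences taken within an array do not depend on a common scale. The mean of the 4 Fc gamma receptors minus Trem2 was -3.08, -2.98, -3.73 and -4.18 on replicates 1 to 4, a range of 1.20 log2 units or 2.30-fold. This difference was chosen after the values were seen. On replicate 4 it lay 0.69 below its mean (-0.69), and between -0.77 and -0.51 under every alternative run, among them quantile normalization, normexp and leaving out replicate 1, 2 or 3. Fcgr2b minus Trem2 changed most, at -5.44, -5.26, -6.34 and -6.69, a range of 2.70-fold. The activating Fc gamma receptors changed against the gamma chain Fcer1g as well. Fcgr3a minus Fcer1g was -1.18, -1.16, -1.78 and -2.07, and Fcgr1a minus Fcer1g was -2.25, -2.18, -2.81 and -3.09. Fcgr2a minus Fcer1g was 1.08, 1.12, 0.45 and 0.22. The 4 arrays carry 4 cultures of 1 condition, so these gaps describe variation between cultures or arrays, which cannot be told apart, and no test was made.

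Promoter windows were read for Trem2 and Fcgr3a, which lay on opposite sides of their means on the 75th percentile scale and on the same side with spike-in scaling, from RefSeq on the GRCr8 assembly (250 bases before to 50 after the start). Array coordinates are not given, since the headers refer to an earlier assembly. The windows were searched on both strands for GAGGAA, the core of the PU-box bound by PU.1, a transcription factor of macrophages encoded by Spi1, and matches are in capitals (TTCCTC on the printed strand). Trem2 lies at chr9:20151730-20152029, minus strand, and Fcgr3a at chr13:85782386-85782685, plus strand.
Trem2: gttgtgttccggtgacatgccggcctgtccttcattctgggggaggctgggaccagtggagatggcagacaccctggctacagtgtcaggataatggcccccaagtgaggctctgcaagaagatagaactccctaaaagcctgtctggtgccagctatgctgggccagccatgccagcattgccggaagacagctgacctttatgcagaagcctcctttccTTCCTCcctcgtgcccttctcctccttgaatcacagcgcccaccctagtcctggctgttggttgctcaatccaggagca
Fcgr3a: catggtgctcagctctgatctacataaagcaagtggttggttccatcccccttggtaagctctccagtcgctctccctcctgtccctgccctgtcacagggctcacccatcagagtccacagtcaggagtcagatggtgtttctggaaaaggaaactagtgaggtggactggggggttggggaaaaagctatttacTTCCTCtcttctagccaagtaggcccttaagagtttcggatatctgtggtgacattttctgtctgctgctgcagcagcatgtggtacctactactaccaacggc
Each window held 1 match, which started at base 222 in Trem2 and at base 197 in Fcgr3a. Syk also had 1 match in its window, and of the 2 windows of Fcgr2a 1 held 2 matches and the other 0. No window is reported for Fcgr1a, Fcgr2b, Fcer1g and Tyrobp, so nothing is said of matches there. The same 6 letters occur in 27.6% of the 33469 windows of this length in the table, so a match is a description and not a binding site. On the 75th percentile scale Spi1 itself read 3.37, 3.27, 3.94 and 4.36 (3.73 ± 0.51, SD, n = 4). With spike-in scaling it read -0.07, -0.06, -0.19 and -0.42, lowest on replicate 4. Under normexp it was highest on replicate 3, at 3.23 against 3.16 on replicate 4.

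**Figure D4:**
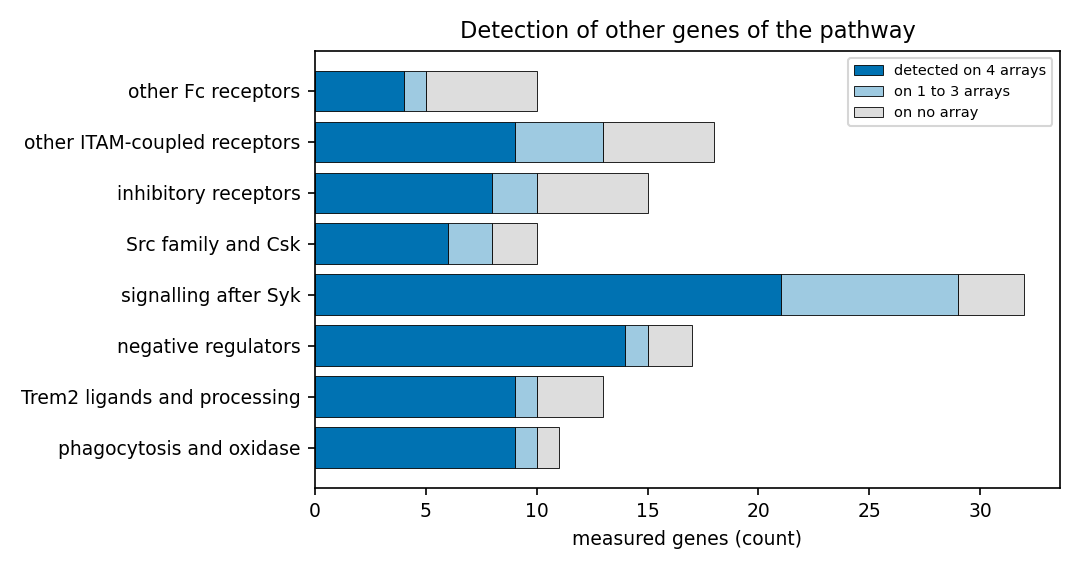
Number of measured genes in 8 lists of the pathway that were well above background on all 4 arrays (dark blue), on 1 to 3 arrays (light blue) or on no array (grey). The list of signalling after Syk is the longest, with 21 of 32 genes detected on all 4 arrays, and other Fc receptors had 4 of 10.

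Other genes of the pathway were described from 8 lists, in which 80 of 126 distinct measured genes were detected on all 4 arrays, against 44.4% of all measured genes. Among other Fc receptors, 4 of 10 were detected. These were Fcgrt, the neonatal receptor that recycles immunoglobulin G, Pigr, the transporter of polymeric immunoglobulins, Fcrla and the cytosolic antibody receptor Trim21. The high-affinity immunoglobulin E receptor chains Fcer1a and Ms4a2, which share the gamma chain Fcer1g in mast cells, were detected on no array, as were Fcer2, Fcrl2 and Fcrl6. Pigr read 6.10, 6.02, 5.51 and 5.45, and Trim21 read -0.26, 0.12, -0.55 and -1.01, both lowest on replicate 4. Fcrla read 4.72, 4.74, 5.06 and 5.20, highest on replicate 4 on the 75th percentile scale but lowest there with spike-in scaling and normexp.

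In the list of other receptors taken to signal through an ITAM or a like motif, with their adaptors, 9 of 18 were detected. These were Trem1, Trem3, Clec4a, Clec4a1, Clec4d, Clec5a, Clec7a, Siglec1 and the adaptor Hcst. Whether each of them, Clec4a included, carries or borrows such a motif was not checked here. Clec7a, the beta-glucan receptor Dectin-1, read 6.63, 6.81, 6.03 and 5.74 and was lowest on replicate 4, and 1 of its 2 spots lies in the dim patch of replicate 3. Clec4a read -0.06, 0.25, -0.51 and -0.98. Clec4d read -0.78, -0.72, -0.05 and -0.66, highest on replicate 3 except with spike-in scaling, where replicate 2 was highest. Clec4e (Mincle) and Oscar were detected on some of the arrays, and the T and NK cell genes Cd3e, Klrk1 and Ncr3 on none.

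Inhibitory receptors were detected in 8 of 15 cases, among them Sirpa, which binds the CD47 signal on other cells, and Pilra. Of the 8 detected genes, 6, 5, 1 and 2 were above their own mean on replicates 1 to 4 on the 75th percentile scale, beside 38.7%, 41.9%, 61.9% and 59.6% of all detected genes. The counts were 6, 7, 3 and 0 under normexp, 7, 6, 1 and 1 with quantile normalization, and 8, 8, 0 and 0 with spike-in scaling, where 0.706% of all detected genes were above their mean on replicate 4. Clec4a3 read 4.86, 4.92, 4.40 and 4.25, Cd300lf read 3.54, 3.48, 3.05 and 2.90, and Cd200r1 read 0.31, 0.52, 0.09 and -0.12. These 3 were lowest on replicate 4. Negative regulators inside the cell were detected in 14 of 17 cases, and 4, 5, 10 and 8 of the 14 lay above their own mean on replicates 1 to 4, near the shares of all detected genes just given, against 14, 14, 4 and 0 with spike-in scaling. They included the phosphatase SHP-1 (Ptpn6) at 7.62, 7.57, 7.98 and 8.24, the lipid phosphatase SHIP2 (Inppl1) at 1.33, 1.24, 1.92 and 2.14, and the adaptor Dok3 at 6.17, 6.03, 6.54 and 6.98. Whether receptors and regulators differ in this was not tested.

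In the list of the Src family kinases that phosphorylate ITAMs, with Csk, the kinase that holds them inactive, 6 of 10 genes were detected, among them Lyn, Fgr, Fyn, Lck and Csk. On the 75th percentile scale Lyn was steady at 5.18, 5.11, 5.21 and 5.03. Fgr read 2.43, 2.30, 2.81 and 3.14, highest on replicate 4 on the 75th percentile scale but lowest there with spike-in scaling. Fyn read 0.97, 0.96, 1.25 and 1.06, and Lck, a kinase best known from T cells, read 0.01, -0.45, -0.26 and -0.25. Csk varied most of these 5 on the 75th percentile scale, at 5.39, 5.29, 6.02 and 6.36. With spike-in scaling Csk read 1.95, 1.97, 1.88 and 1.58, the narrowest range of the 5, and Lyn read 1.74, 1.79, 1.08 and 0.25. Yes1 and Frk were detected on some arrays, and Src and Blk on none.

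Of the genes that act after Syk, 21 of 32 were detected. Plcg2, Btk, Tec, Vav1, Vav2, Vav3, Card9, Bcl10, Prkcd, Rac1, Rac2 and Cdc42 were among them, whereas the adaptor genes Lat and Blnk, known from lymphocytes, and Prkcb were detected on no array. The widest spread belonged to Rac1, a GTPase of the phagocytic cup, at 4.08, 4.19, 2.83 and 4.03, and its only spot lies in the dim patch of replicate 3. Vav3, an exchange factor for such GTPases, read 0.998, 1.07, 0.29 and -0.20, and the Tec family kinase Btk read 1.79, 1.65, 1.19 and 0.52. Both were lowest on replicate 4.

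Genes linked to Trem2 were detected in 9 of 13 cases. Psen2, Ncstn, Aph1a and Psenen, parts of gamma-secretase, which processes the Trem2 stub after shedding, were detected, as were the sheddases Adam10 and Adam17, but the Trem2 ligand genes Apoe and Clu were detected on no array. Psen2 read 4.12, 4.03, 4.89 and 5.16 and Aph1a read 5.67, 5.60, 6.24 and 6.44, both highest on replicate 4 on the 75th percentile scale but lowest there with spike-in scaling. Lgals3, which encodes galectin-3, read 10.60, 10.55, 10.63 and 11.44. In the list on phagocytosis and the oxidase, 9 of 11 genes were detected, with Dnm2 at 5.63, 5.54, 6.15 and 6.48, Cyba at 10.17, 10.09, 10.52 and 11.02, and Rab7a at 2.58, 2.73, 1.64 and 2.02. The only spot of Rab7a lies in the dim patch of replicate 3.

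Markers of other cells that carry Fc receptors or ITAM adaptors were mostly not detected, but only 44.4% of all measured genes were detected either. On all 4 arrays, 0 of 9 mast cell and basophil markers, 2 of 6 B cell markers (Pax5 and Ebf1), 2 of 11 T and NK cell markers (Cd3d and Nkg7), 1 of 9 neutrophil markers (Camp) and 2 of 7 osteoclast and microglia markers (Acp5 and Calcr) were detected, against 9 of 12 macrophage markers. Of the other markers in these lists, Kit, Cpa3, Cd79b, Cd3e, Ncr1, S100a8, Elane and Tmem119 were among those well above background on no array. Summed over the list, the linear signal of the macrophage markers was 1110 to 1266 times the 75th percentile of the array. A single bright gene can give most of such a sum, as Lyz2 did here. The lists also differ in length, so the sums are not set against each other between cell types. The sum was 0.57 to 1.13 for mast cell and basophil, 2.01 to 3.38 for B cell, 3.70 to 5.63 for T and NK cell, 6.46 to 7.27 for neutrophil and 6.44 to 7.26 for osteoclast and microglia markers. These 5 sums were highest on replicate 4, the array with the lowest 75th percentile, where Trem2 and Fcer1g were highest too on this scale. The sums also hold markers that were not well above background. On replicate 4, 0 of the 9 mast cell and basophil markers were well above background, against 1 on each other array. Their median level was nevertheless higher there, at -3.27 against -4.35, -4.60 and -4.06 on replicates 1 to 3. A part of other cells in the levels of Trem2 and Fcer1g was not tested.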

How the data were processed

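Cy3-labelled RNA from 4 cultures was measured on 1-colour Agilent arrays. The authors deposited linear spot intensities, read out by Agilent Feature Extraction 11.0.1.1, per the file headers and the submitters' processing notes. The processed intensity was background-subtracted and spatially detrended by that software, per the file headers; no normalization across arrays had been applied. Other deposited columns used here, per the file headers, are flags of 0 or 1, and the raw spot and local background medians.

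Here, spots marked as non-uniform or population outliers were left out, log2 values were averaged per probe, and the 75th percentile over sample probes was subtracted. Spot SDs and the lowest and highest spots were taken over all spots, marked ones included. Of 45598 sample probes, 21109 were named through RefSeq (GRCr8). Genes took their brightest probe, and a probe counted as detected with over 50% of its spots marked. Blocks of 16 by 8 spots whose median on replicate 3 lay more than 0.3 log2 units under the other arrays (-0.3) made the dim patch.

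With 1 group there was no contrast, so no test was run, and p-values are not given. The members and lists were chosen with earlier results of these data known. The text gives values for all members, the detected Src family genes, and the 3 detected genes with the largest SD of each other pathway list; 1 gene this rule names is not reported here. Alternatives were spike-in scaling, quantile normalization, normexp with an offset of 50, outlier-marked spots kept, other probe and detection rules, and leaving out each replicate. Centring, SD and outlier steps were tested on simulated data. Precision is limited by having 4 arrays and, for dim probes, by background. Tools were Python 3.11.15, numpy 2.4.6, pandas 2.3.3, scipy 1.17.1, matplotlib 3.10.9, R 4.3.3 and limma 3.58.1.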

Additional observations from a re-analysis of the deposited data

Results flagged for a closer look

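Dixon's ratio, the gap of the most distant array from its nearest neighbour divided by the whole range over 4 arrays, was computed for 46 results, and 3 exceeded the 95% critical value for 4 samples, which chance passes in about 1 of 20 groups. None of the 3 is one of the 8 Fc receptor and ITAM genes. Under normexp, however, Tyrobp exceeded the critical value (ratio 0.965), with replicate 4 at 8.54 against 8.81, 8.82 and 8.81 on replicates 1 to 3. On the 75th percentile scale its ratio was 0.752. The values that follow are those of the 75th percentile scale unless another is named. Rac1 (ratio 0.884) was low on replicate 3 at 2.83, against 4.08, 4.19 and 4.03 on replicates 1, 2 and 4. With spike-in scaling replicate 3 was its lowest array too (ratio 0.255), as under normexp (0.472) and quantile normalization (0.774). The only spot of Rac1 lies in the dim patch of replicate 3, and the part of the patch in this reading was not tested. Lgals3 (ratio 0.906) was high on replicate 4 at 11.44, against 10.60, 10.55 and 10.63 on replicates 1 to 3, whereas with spike-in scaling it read 7.16, 7.23, 6.50 and 6.66 on replicates 1 to 4 (ratio 0.222). Clec4d (ratio 0.840) was high on replicate 3 at -0.05, against -0.78, -0.72 and -0.66 on replicates 1, 2 and 4, whereas with spike-in scaling replicate 4 stood apart as the lowest (ratio 0.877).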

How the results depend on the processing

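All 8 genes were detected under every detection alternative run. Of 126 other pathway genes, 80 were detected, against 99 with a looser detection mark, 86 at 3 of 4 arrays, 72 with every probe detected, and 80 to 86 without 1 replicate. The median SD of the 8 genes was 0.14, and 0.72 with spike-in scaling, 0.21 with quantile normalization and 0.30 with normexp; without 1 replicate it was 0.13 to 0.16. The deviations of single genes on replicates 3 and 4 were recomputed too. With spike-in scaling, sign changes occurred for Trem2 (-0.12 and -0.33), Fcer1g (-0.068 and -0.49) and Syk (-0.15 and -0.84) on replicates 3 and 4 and for Tyrobp on replicate 4 (-0.66). Under normexp, they occurred on replicate 3 for Fcgr1a (0.028), Fcgr3a (0.0080) and Tyrobp (0.068), and on replicate 4 for Fcer1g (-0.034), Tyrobp (-0.20) and Syk (-0.31). With quantile normalization, they occurred on replicate 4 for Tyrobp (-0.078) and Syk (-0.035). Without 1 replicate, the deviation on replicate 3 was -0.018 to 0.27 for Trem2 and -0.062 to 0.037 for Tyrobp, and that on replicate 4 was -0.0083 to 0.041 for Syk. Spike-in scaling subtracts 1 constant per array, so it moves every gene of an array equally; the cause under the other settings was not tested. The mean level of Syk was 1.09 with its probes averaged, against 2.58 with the brighter one. Leaving out the spots of the dim patch was added after seeing the data. No paired analysis was possible because the samples form 1 group. Only probes well above background are precise, and the dimmer Syk probe was near that limit.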

Other observations

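For the 3 genes whose SD exceeded the median of all detected genes, the nearest profiles over the 4 arrays were sought by the root mean square difference of levels, each minus its gene's own mean. Those nearest to Trem2 were Yipf2, Nop2 and Mrpl37 (0.01 to 0.02 log2 units), to Fcer1g Ruvbl2, Mapre2 and Cib1 (0.003 to 0.008), and to Fcgr2b Snupn, Tmem183a and Nt5c3a (0.02 to 0.03). Of the 7363 detected genes, 645 lay within 0.1 log2 units for Trem2, 1067 for Fcer1g and 239 for Fcgr2b. With 4 arrays many genes thus shared each profile, and the closest ones are a description. Yipf2 read 1.01, 0.96, 1.40 and 1.81 on replicates 1 to 4, and Snupn read -0.18, -0.10, -0.73 and -0.61. The profile of Fcgr2b, high on replicates 1 and 2, had fewer like genes within that distance than that of Fcer1g. Its replicate 3 value depended on spot handling, with a deviation of -0.31, or -0.54 with outlier-marked spots kept. The count with those spots kept was not taken.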
